A study of Danio rerio with 10 samples.

Results

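Among 36351 gene models counted in RNA from whole zebrafish embryos, 86 (0.237% of the table) met a rule for higher levels in cebra. Each stood above heterozygous siblings in all 3 cebra libraries used, at a ratio of means of at least 1.5. These 86 models are described here. The members were chosen by their measured CPM (the read count as a share of the library total) in 7 libraries. A model was taken if its mean over cebra replicates 1, 3 and 4 was at least 1 CPM, its heterozygous mean was below 500 CPM, each of the 3 cebra values lay above each of the 4 heterozygous values, and the cebra mean was at least 1.5 times the heterozygous mean. Cebra replicate 2 took no part in this choice. The cebra group holds 4 libraries of embryos with the cebra genotype at 28 hours post fertilisation (hpf). The heterozygous group holds 4 libraries of siblings of the same stage, which carry 1 cebra allele. The labels name no mutated gene, no further allele or treatment, and give no number of embryos per library, so the spread between libraries may be technical. RNA came from the whole body, in which more cells of a type and more RNA per cell cannot be told apart. Because the values of 7 libraries chose the 86 models, their difference in those libraries is a description and carries no test.

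The series title places the cebra line in work on cilia and the Reissner fiber. The Reissner fiber is a thread of the glycoprotein SCO-spondin, secreted by the subcommissural organ and the floor plate into the fluid of the brain ventricles and the central canal. Motile cilia of the ependymal cells and the floor plate move that fluid, and zebrafish that lack the fiber or cilia motility fail to straighten the body axis as embryos. The models carry LL-type identifiers. None of them (0) matched the symbol tables used here, so no model is given a gene name, a role or a position, and each is named below by its length in bases. Markers of the whole embryo's tissues and genes of the cilia and Reissner fiber pathways were not analysed here for the same reason.

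Library totals were 50634030 to 69204646 counts in cebra and 58506594 to 71877787 counts in heterozygotes, so that 1 CPM is worth 50.6 to 71.9 counts. Cebra replicate 2 stood apart before any choice was made. Of the 19669 models inside the level limits, 16.8% differed by more than 2-fold from the median of the other libraries in it, against 0.0305% to 0.554% in the other 7. Its TMM scaling factor (trimmed mean of M values, a correction of the library total) was 0.775, against 1.019 to 1.058 in the others. The choice itself rests on small steps in scaling. With TMM-scaled CPM the same thresholds gave 56 models, and all 56 are among the 86.

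Most of the 86 models were of low level. Their heterozygous means ran from 0.303 to 153.8 CPM with a median of 1.19 CPM, where the 19669 models inside the level limits had a median of 12.8 CPM. Their cebra means over replicates 1, 3 and 4 ran from 1.01 to 384 CPM with a median of 1.94 CPM. A model at the low end therefore rests on few reads. The lowest count of a member was 26 in a cebra library of the rule and 15 in a heterozygous library. The ratio of the cebra mean to the heterozygous mean had a median of 1.66, with quartiles of 1.53 and 1.84. It reached at least 2 in 14 models and at least 3 in 6. All 3 cebra libraries lay above every heterozygous library in 8.03% of the 19669 models, and the 86 are the part of that group with a ratio of means of at least 1.5. The gap itself was narrow for many members. The lowest cebra value of the rule exceeded the highest heterozygous value by a median factor of 1.24, and the factors ran from 1.002 to 2.97.

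**Figure D1:**
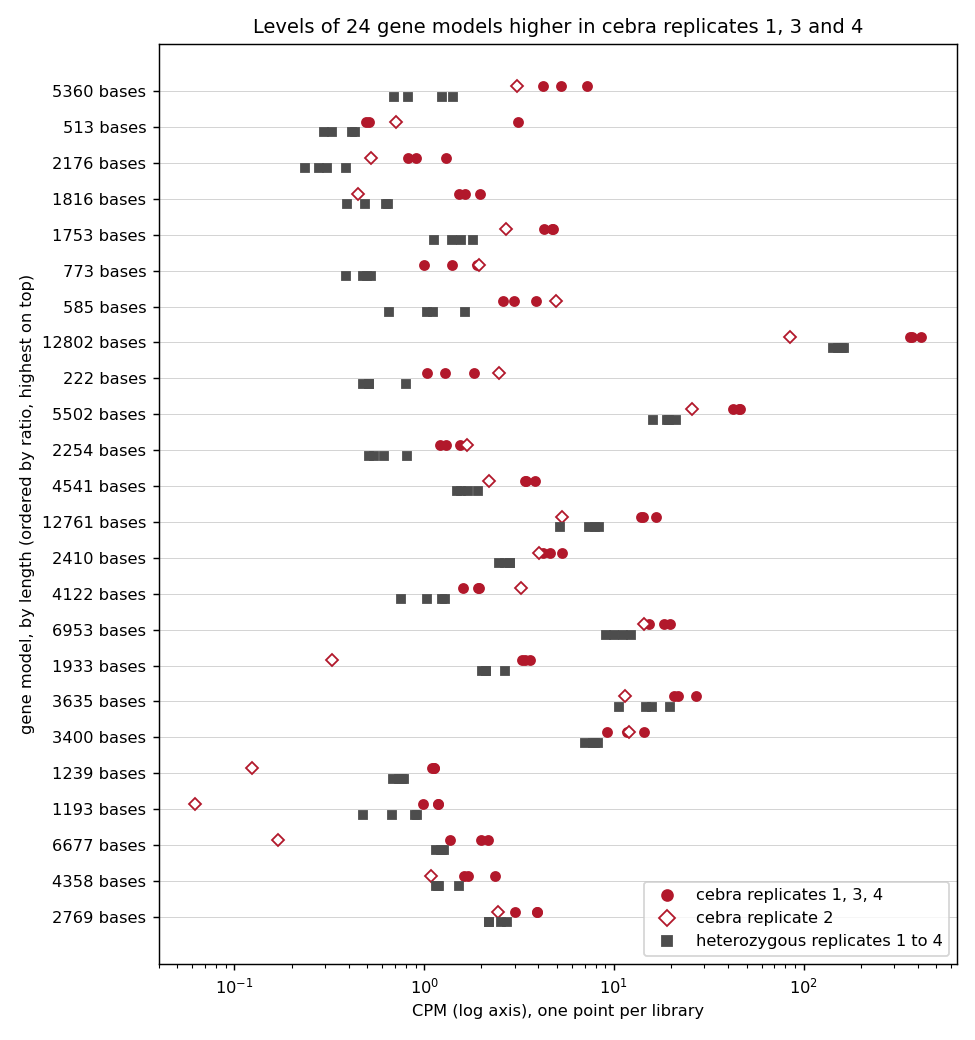
CPM on a log axis of the 24 models named in the text, by library, ordered by ratio with the highest on top. Filled circles are cebra replicates 1, 3 and 4, open diamonds are cebra replicate 2 and squares are the 4 heterozygous libraries. The circles lie right of the squares in each row because the choice required it. The diamonds range from right of the circles (585 bases, 4.96 CPM) to far left of the squares (1193 bases, 0.0620 CPM).

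The widest separation belonged to a model of 5360 bases. It stood at 5.27, 7.19 and 4.23 CPM in cebra replicates 1, 3 and 4 and at 3.07 CPM in cebra replicate 2, against 0.696 to 1.43 CPM in the 4 heterozygous libraries. All 4 cebra libraries were above all 4 heterozygous libraries, and the ratio of means in the libraries of the rule was 5.31. A model of 1753 bases had 4.29, 4.69 and 4.80 CPM in cebra replicates 1, 3 and 4 and 2.68 CPM in cebra replicate 2, against 1.41, 1.80, 1.57 and 1.13 CPM in heterozygotes. Here too no cebra value overlapped a heterozygous value, and the ratio in the rule was 3.11. A model of 2176 bases, at 0.908, 1.30 and 0.824 CPM in cebra replicates 1, 3 and 4 and 0.527 CPM in cebra replicate 2, stood against 0.235 to 0.389 CPM in heterozygotes. Its ratio in the rule was 3.34.

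For a further pair of models with ratios above 3 the libraries of the cebra group disagreed. A model of 513 bases had 0.513, 0.492 and 3.12 CPM in cebra replicates 1, 3 and 4 and 0.714 CPM in cebra replicate 2, against 0.298 to 0.434 CPM in heterozygotes. Its ratio of 3.73 rests on cebra replicate 4. Cebra replicates 1 and 3 lay just above the heterozygous range, and cebra replicate 2 was 1.94 times the heterozygous mean. A model of 1816 bases had 1.64, 1.97 and 1.53 CPM in cebra replicates 1, 3 and 4, against 0.393 to 0.643 CPM in heterozygotes, but 0.450 CPM in cebra replicate 2, which is inside the heterozygous range. By contrast a model of 773 bases had 1.40, 1.89 and 0.997 CPM in cebra replicates 1, 3 and 4 and 1.94 CPM in cebra replicate 2, against 0.390 to 0.524 CPM in heterozygotes.

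The most abundant member, LL0000031206, is a model of 12802 bases. It had 365, 416 and 371 CPM in cebra replicates 1, 3 and 4, against 151, 143, 162 and 159 CPM in heterozygotes, and 85.0 CPM in cebra replicate 2. The last value is below every heterozygous library. Per kilobase of model, its level averaged 30.0 CPM in cebra replicates 1, 3 and 4 and 12.0 CPM in heterozygotes, the highest of the 86 on that scale too. The next, LL0000025514, of 5502 bases, had 45.6, 42.4 and 46.0 CPM in cebra replicates 1, 3 and 4 and 25.9 CPM in cebra replicate 2, against 16.1, 21.2, 19.6 and 19.0 CPM in heterozygotes. Its level per kilobase averaged 8.12 CPM in cebra replicates 1, 3 and 4 and 3.45 CPM in heterozygotes. All 4 cebra libraries were above all heterozygous ones, with cebra replicate 2 nearest to them.

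Among the other abundant members named here cebra replicate 2 lay either above or inside the heterozygous range. A model of 6953 bases had 15.3, 18.4 and 19.7 CPM in cebra replicates 1, 3 and 4 and 14.4 CPM in cebra replicate 2, against 9.11 to 12.3 CPM in heterozygotes. A model of 3400 bases had 11.7, 14.4 and 9.15 CPM in cebra replicates 1, 3 and 4 and 12.0 CPM in cebra replicate 2, against 7.04 to 8.29 CPM in heterozygotes. In both, the groups did not overlap over all 8 libraries. In a model of 12761 bases the cebra values of the rule were 13.9, 16.7 and 14.2 CPM and cebra replicate 2 had 5.31 CPM, against 5.19 to 8.33 CPM in heterozygotes. A model of 3635 bases had 21.9, 20.8 and 26.9 CPM in cebra replicates 1, 3 and 4 and 11.4 CPM in cebra replicate 2, against 10.6 to 19.7 CPM in heterozygotes. For this last pair of models cebra replicate 2 lay inside the heterozygous range.

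Summed over all 86 models the level was 691, 754.5 and 712 CPM in cebra replicates 1, 3 and 4 and 309 CPM in cebra replicate 2, against 329 to 361 CPM in heterozygotes. The sum is dominated by the abundant pair. Without LL0000031206 and LL0000025514 it was 281, 296 and 295 CPM in cebra replicates 1, 3 and 4 and 199 CPM in cebra replicate 2, against 162 to 179 CPM in heterozygotes. On that smaller sum cebra replicate 2 was above each heterozygous library, and on the full sum it was below each of them.

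**Figure D2:**
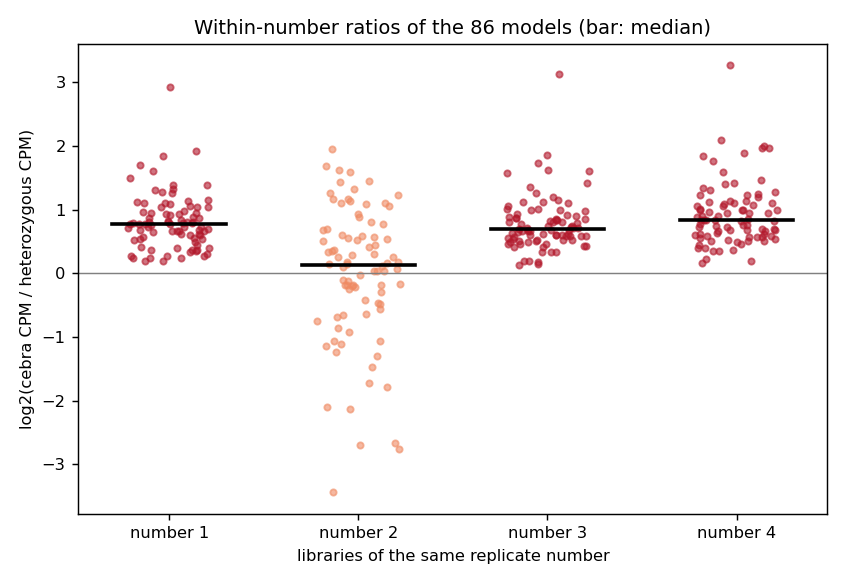
Log2 of the cebra CPM over the heterozygous CPM for libraries of the same replicate number. Each point is 1 of the 86 models, the bar is the median and the grey line marks equal levels. For numbers 1, 3 and 4 every point is above the line by the choice of models. For number 2, with a median ratio of 1.09, points lie on both sides.

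Libraries of the same replicate number deviated together across the groups, so ratios were also read within numbers. The median ratio of cebra over heterozygous CPM was 1.71, 1.61 and 1.79 within numbers 1, 3 and 4 and 1.09 within number 2. The choice of models sets every ratio within numbers 1, 3 and 4 above 1, so those medians carry no test. The quartiles within number 2 were 0.684 and 1.59, and the extremes were 0.0920 and 3.86. Over the 19669 models inside the level limits the median ratio within number 2 was 0.737. Cebra replicate 2 exceeded heterozygous replicate 2 in 49 of the 86 models, or 57.0%, where it did so in 27.3% of all models inside the limits.

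In the test across the whole table, edgeR's quasi-likelihood fit of 4 cebra against 4 heterozygous libraries, all 86 models passed the filter on low counts and all 86 had a positive log2 fold change. The log2 fold changes of the members ran from 0.19 to 2.29 with a median of 0.66, against a median of 0.02 over the 25342 models tested. Of the 86, 1 passed a Benjamini-Hochberg false discovery rate of 0.05, and it was the only higher call of the table (0.00395% of models tested). That model is LL0000025514, at 40.0 ± 9.54 CPM in cebra and 19.0 ± 2.13 CPM in heterozygotes (SD, n = 4 each), and its adjusted p in edgeR was 0.0386 at a log2 fold change of 1.13 (SE 0.13). The models of 5360 and 1753 bases missed the threshold with edgeR log2 fold changes of 2.29 (SE 0.28) and 1.53 (SE 0.18), both at an edgeR adjusted p of 0.0517. LL0000031206, at 309 ± 151 CPM in cebra and 154 ± 8.49 CPM in heterozygotes (SD, n = 4 each), reached an adjusted p of 0.927 in edgeR, at a log2 fold change of 1.01 (SE 0.33). These p-values hold 7 libraries that chose the models, so they describe the members and do not test them.

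The count of called members depended on which libraries and tool were used. Without cebra replicate 2, edgeR called 8 members (0.043% of models tested were called higher). Among them were the models of 5360, 1753, 1816, 4541 and 12761 bases, LL0000025514 and LL0000031206, the last with an edgeR adjusted p of 1.11e-05. That fit holds only the 7 libraries that chose the models, so its calls and p-values are a description and no test. Without any other single library edgeR called 0 members, with 596 to 1174 models of any kind at an unadjusted p under 0.05, and with the replicate number as a block over all 8 libraries it called 0 of any model (0.0%), with 1012 models at an unadjusted p under 0.05. LL0000025514 then had an edgeR adjusted p of 0.730. DESeq2 over all 8 libraries called 18 members, with 0.0868% of models called higher. With the replicate block and the libraries numbered 1, 3 and 4 alone, edgeR called 39 members, with 0.782% of models called higher. Those libraries also chose the models, so this count is no test of them either. Cebra replicate 2 was above every heterozygous library in 16 of the 18 members that DESeq2 called, but that fit includes it. In the fits that leave it out the number was 4 of 8 without cebra replicate 2 and 22 of 39 in pairs 1, 3 and 4. For comparison, cebra replicate 2 was above every heterozygous library in 45.3% of all members, called or not. It was so in 21.7% of the 19669 models inside the level limits. No test was made of these differences.

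Cebra replicate 2 gives the values that the choice did not use. It was above every heterozygous library in 39 of the 86 models (45.3%), inside the heterozygous range in 18 and below every heterozygous library in 29 (33.7%). Over the 19669 models inside the level limits it was above in 21.7% and below in 63.2%. It reached at least 1.5 times the heterozygous mean in 24 members (27.9%), where 6.9% of all models did. The median log2 ratio of cebra replicate 2 over the heterozygous mean was 0.16 in the members and -0.43 over all models inside the limits, a difference of 0.59. This is 1 library with no replicate error of its own, and the heterozygous values below it were themselves chosen to be low, so the difference is a description and has no test.

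The position of cebra replicate 2 relative to the heterozygotes depends on the scaling. TMM scaling raised its median over all models by 0.41 on the log2 scale, to -0.03. Cebra replicate 2 was then above every heterozygous library in 53 members (61.6%), where 41.1% of all models were above, and below every one in 19 (22.1%), where 43.1% were below. A scaling factor moves the members and all models together, so the difference of their medians cannot respond to it. After each library was corrected for a trend on model length, 55 members (64.0%) were above, where 33.1% of all models were, and 17 (19.8%) were below, where 41.8% were. The difference of medians, 0.59 before the correction, was then 0.48.

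**Figure D3:**
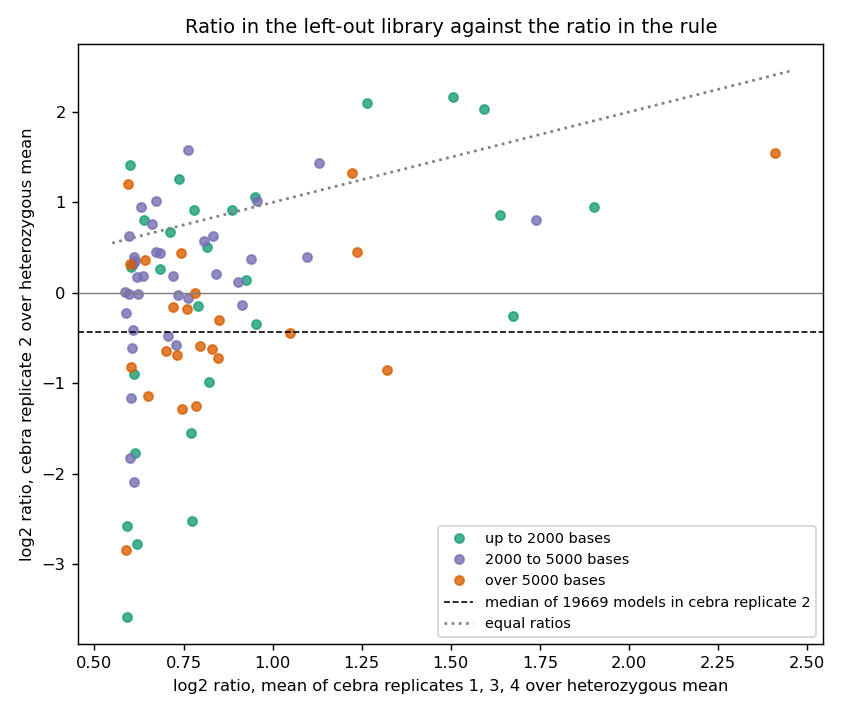
Log2 ratio of cebra replicate 2 over the heterozygous mean (vertical) against the log2 ratio of the mean of cebra replicates 1, 3 and 4 over the same heterozygous mean (horizontal), both from CPM. Each point is 1 of the 86 models, coloured by model length. The dashed line is the median of all 19669 models in cebra replicate 2, at -0.43, and the dotted line marks equal ratios. Both axes share the heterozygous mean. Of the 14 models at a ratio of 2 or more in the rule, 11 had cebra replicate 2 above every heterozygous library, where 21.7% of all 19669 models did.

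Members were then split by their ratio in the rule. Of the 14 models with a ratio of at least 2, cebra replicate 2 was above every heterozygous library in 11, inside their range in 2 (1816 and 12761 bases) and below in 1 (12802 bases). Of the 72 models under a ratio of 2 it was above in 28 (38.9%), inside in 16 and below in 28 (38.9%). Over all models inside the level limits it was above in 21.7% and below in 63.2%. Both ratios share their heterozygous libraries, and no test was made of this difference.

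The 6 members with the highest ratio in cebra replicate 2 were models of 585, 222, 773, 4122, 5360 and 2254 bases. The model of 585 bases had 3.89, 2.97 and 2.59 CPM in cebra replicates 1, 3 and 4 and 4.96 CPM in cebra replicate 2, against 1.03, 1.65, 1.11 and 0.649 CPM in heterozygotes. Cebra replicate 2 was 4.48 times the heterozygous mean. Its ratio over the pooled heterozygous libraries was 4.45, and counting error alone gives that ratio an exact 95% range of 3.79 to 5.24. The model of 222 bases had 1.28, 1.03 and 1.84 CPM in cebra replicates 1, 3 and 4 and 2.47 CPM in cebra replicate 2, against 0.479 to 0.800 CPM in heterozygotes. In both, cebra replicate 2 was the highest of all 8 libraries.

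The model of 4122 bases had 1.96, 1.92 and 1.60 CPM in cebra replicates 1, 3 and 4 and 3.23 CPM in cebra replicate 2, against 0.752 to 1.29 CPM in heterozygotes. The model of 2254 bases had 1.30, 1.21 and 1.55 CPM in cebra replicates 1, 3 and 4 and 1.68 CPM in cebra replicate 2, against 0.513 to 0.808 CPM in heterozygotes. Of these 6 models, 5 had cebra replicate 2 above all other libraries, and the exception was the model of 5360 bases.

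Some members had a moderate ratio in all 4 cebra libraries. The model of 2410 bases had 4.60, 5.35 and 4.25 CPM in cebra replicates 1, 3 and 4 and 4.02 CPM in cebra replicate 2, against 2.84, 2.48, 2.66 and 2.84 CPM in heterozygotes. Its edgeR log2 fold change over 8 libraries was 0.83 (SE 0.14) with an edgeR adjusted p of 0.272. The model of 4541 bases had 3.85, 3.43 and 3.41 CPM in cebra replicates 1, 3 and 4 and 2.19 CPM in cebra replicate 2, against 1.49 to 1.91 CPM in heterozygotes, and an edgeR adjusted p of 0.190. In both models the groups did not overlap, and neither passed the threshold over 8 libraries.

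At the other end are the 4 members with the lowest ratio in cebra replicate 2, which was far below all other libraries in each. Members not named here were also well below every heterozygous library in it. The model of 1193 bases had 1.19, 0.985 and 1.18 CPM in cebra replicates 1, 3 and 4, against 0.918, 0.674, 0.898 and 0.479 CPM in heterozygotes, and 0.0620 CPM (4 counts) in cebra replicate 2. That is 0.0836 times the heterozygous mean. The ratio over the pooled heterozygous libraries was 0.0822, with an exact 95% interval of 0.0222 to 0.214 for counting error. The model of 1933 bases had 3.28, 3.63 and 3.40 CPM in cebra replicates 1, 3 and 4, against 2.02 to 2.67 CPM in heterozygotes, and 0.326 CPM in cebra replicate 2. The models of 6677 and 1239 bases stood at 0.171 and 0.124 CPM in cebra replicate 2, which is 0.139 and 0.167 times their heterozygous means. The same intervals for the models of 1933, 6677 and 1239 bases were 0.0902 to 0.227, 0.0688 to 0.252 and 0.0714 to 0.337. In these 4 models cebra replicate 2 was farther from the other cebra libraries than any heterozygous library was. They were picked as the members lowest in cebra replicate 2, so wide gaps follow from the pick. The gaps and intervals are descriptions and carry no test.

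Counting error alone was compared with the distance of cebra replicate 2 in every member. The exact 95% interval of the ratio of cebra replicate 2 over the pooled heterozygous libraries lay above 1 in 36 members, below 1 in 27 and held 1 in 23. These ratios are on library totals without scaling, where the median log2 ratio of cebra replicate 2 over all models inside the limits was -0.43. An interval below 1 can therefore hold that shift of the whole library, and the intervals were not counted over all models. The intervals leave out the spread between embryos and libraries, so they show how many members had enough reads to be placed and not whether cebra replicate 2 differs from heterozygotes.

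**Figure D4:**
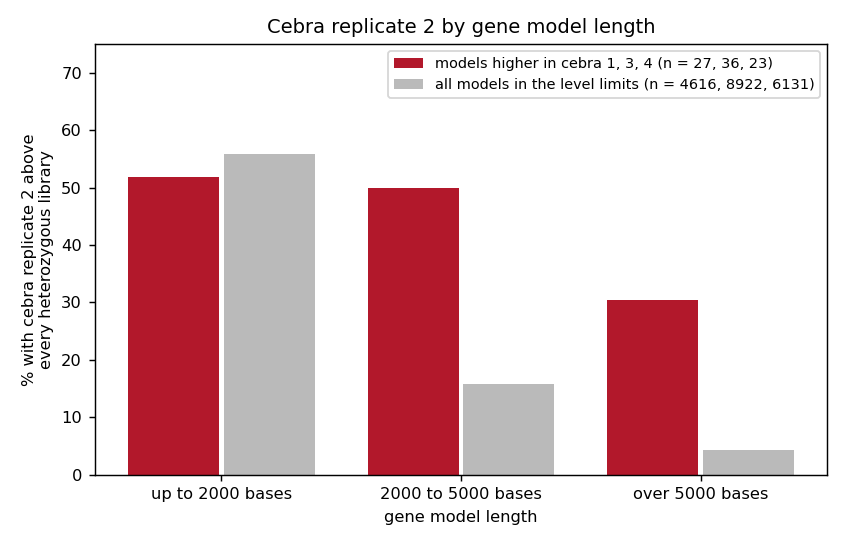
Share of models in which cebra replicate 2 was above every heterozygous library, by model length. Red bars are the models higher in cebra replicates 1, 3 and 4, grey bars are all models inside the level limits, and the numbers in each class stand in the legend. The bars stand at 51.9% and 55.9% up to 2000 bases and at 30.4% and 4.34% over 5000 bases. The members are of lower level than all models in each class, which the plot does not show.

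The 86 models were of ordinary length, a property that the choice did not use. Their median length was 3351 bases with quartiles of 1828 and 5198 bases, against a median of 3515 bases with quartiles of 2085 and 5603 bases over all models inside the level limits. Models under 1000 bases made up 9.30% of the members (8 models) and 5.51% of all. Cebra replicate 2, however, carried a length trend through the whole table. Spearman's rho between length and the log2 ratio of cebra replicate 2 over the heterozygous mean was -0.24 among the 86 members and -0.53 across the 19667 models with a count in it. Both are across models that share the same 5 libraries.

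By length class the shares were as follows. Up to 2000 bases, cebra replicate 2 was above every heterozygous library in 14 of 27 members (51.9%), where 55.9% of all models of that length were. Above 2000 and up to 5000 bases it was above in 18 of 36 members (50.0%), where 15.8% of all were. Over 5000 bases it was above in 7 of 23 members (30.4%), where 4.34% of all were. In that longest class the median ratio of cebra replicate 2 over the heterozygous mean was 0.735 in the members and 0.519 over all models. These classes do not match the members in level, and among short models the share over the whole table moves with level.

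By level class, cebra replicate 2 was above every heterozygous library in 19 of 44 members with a cebra mean of 1 to 2 CPM (43.2%), where 22.3% of all models of that level were. From 2 to 5 CPM it was above in 11 of 24 members (45.8%), where 19.0% were, and at 5 CPM and over in 9 of 18 members (50.0%), where 22.2% were.

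Length and level were then crossed. Up to 2000 bases, cebra replicate 2 was above every heterozygous library in 8 of 16 members at 1 to 2 CPM (50.0%), where 33.3% of all such models were. It was above in 6 of 9 at 2 to 5 CPM (66.7%), where 38.1% were, and in 0 of 2 at 5 CPM and over, where 68.6% were. Of the 2581 short models with cebra replicate 2 above every heterozygous library, 1942 were at 5 CPM and over, where 2 of the 27 short members are. The part of level in the share of the short members was not tested. Over 2000 bases it was above in 11 of 28 members at 1 to 2 CPM (39.3%), where 15.7% were, in 5 of 15 at 2 to 5 CPM (33.3%), where 11.1% were, and in 9 of 16 at 5 CPM and over (56.2%), where 10.6% were. The members' share exceeded that of all models in 5 of these 6 classes, several of which hold few members. All 6 classes share cebra replicate 2 and the same heterozygous libraries, as do the classes by length or level alone. The members' heterozygous values were chosen to be low, which those of all models were not. The differences in share are therefore descriptions and have no test. The models of 222 and 773 bases, with cebra means of 1.38 and 1.43 CPM, and that of 585 bases, with 3.15 CPM, fall in the low-level classes of short models. The part of the length trend in their values was not tested.

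**Figure D5:**
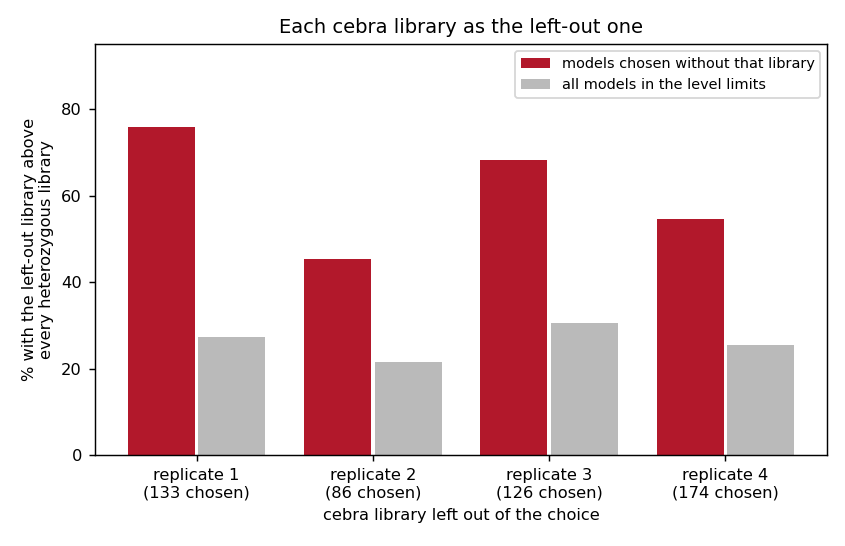
Share of models in which a cebra library left out of the choice was above every heterozygous library. Red bars are the models chosen without that library and grey bars are all models inside the level limits. The choice without replicate 2 used 3 cebra libraries, and those without replicate 1, 3 or 4 used the 2 that remained of replicates 1, 3 and 4. The red bars run from 45.3% (replicate 2) to 75.9% (replicate 1).

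To set cebra replicate 2 beside the other cebra libraries, each of those was left out of the rule in turn. Without cebra replicate 1 the rule took 133 models, and cebra replicate 1 was above every heterozygous library in 101 of them (75.9%), where 27.3% of all models were. Without cebra replicate 3 it took 126 models, and cebra replicate 3 was above in 86 (68.3%), where 30.6% were. Without cebra replicate 4 it took 174 models, and cebra replicate 4 was above in 95 (54.6%), where 25.5% were. The median log2 ratio of the left-out library over the heterozygous mean was 0.47, 0.45 and 0.32 for replicates 1, 3 and 4. Over all models inside the limits it was 0.02, 0.04 and 0.02. These choices used 2 cebra libraries, where the choice of the 86 used 3. The heterozygous values took part in each choice and were chosen to be low, so the shares and medians are descriptions. Cebra replicate 2 was above in 39.8%, 38.9% and 31.6% of these same 3 sets. The sets share heterozygous libraries with each other and with the 86, and 74, 65 and 70 of their models are among the 86.

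The coefficient of variation had a median of 13.5% over cebra replicates 1, 3 and 4 and 14.6% over the heterozygotes, against 7.88% and 8.38% over all models inside the limits, whose median level was higher. No single cebra library led the members. The highest of the 3 was replicate 1 in 25 (29.07%), replicate 3 in 33 (38.37%) and replicate 4 in 28 models (32.56%). Over all models inside the limits these shares were similar, at 29.04%, 33.55% and 37.41%. Among the heterozygotes replicate 3 was the highest in 31 members (36.0%), where it was in 25.4% of all models, and the lowest in 10 (11.6%), where it was in 27.0%. In 6 members (6.98%) replicate 4 was the highest both of cebra replicates 1, 3 and 4 and of the heterozygotes, where it was so in 18.2% of all models. Cebra replicate 2 was left out of this count. All these values come from the 7 libraries that chose the models. The choice acts on the highest heterozygous and the lowest cebra value, so the departures from all models are descriptions and carry no test.

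At the edge of the choice the values run on without a gap. The 3 members just inside, of 2769, 4358 and 6677 bases, had ratios of 1.502, 1.504 and 1.504, and the 3 models just outside, of 1178, 5819 and 1694 bases, had 1.499, 1.498 and 1.498. The model of 2769 bases averaged 3.62 ± 0.539 CPM in cebra replicates 1, 3 and 4 (SD, n = 3) and had 2.44 CPM in cebra replicate 2, against 2.19 to 2.72 CPM in heterozygotes. The model of 1178 bases, outside, averaged 1.47 CPM in cebra replicates 1, 3 and 4 and had 0.388 CPM in cebra replicate 2, against a heterozygous mean of 0.982 CPM. In both, cebra replicate 2 was not above every heterozygous library. The same rule turned round, with heterozygotes above cebra, was met by 45 models.

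Some members carry identifiers with close numbers. Another member lay within 20 identifier numbers for 18 of the 86 (20.9%), where a member lay that close for 8.37% of all models inside the limits. The sources used here do not say whether identifier numbers follow position. The closest are models of 2206 and 6727 bases, 1 number apart, with ratios of 1.52 and 1.56 in the rule and cebra means of 5.33 and 5.27 CPM over replicates 1, 3 and 4. Their counts were close in every library. In cebra replicates 1 to 4 they were 267 and 276, 282 and 280, 291 and 298, and 412 and 379. In heterozygous replicates 1 to 4 they were 260 and 245, 220 and 220, 241 and 239, and 195 and 181. Whether these models share reads was not tested, so they may not be separate members. The models of 1816 and 1753 bases, 3 numbers apart, had ratios of 3.19 and 3.11 in the rule but 0.837 and 1.82 in cebra replicate 2. The models of 513 and 773 bases, 7 numbers apart, had ratios of 3.73 and 3.02 in the rule and 1.94 and 4.10 in cebra replicate 2. These 3 sets of neighbours were named after their values were seen.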

How the data were processed

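The authors deposited a table of raw counts for each gene model and library, beside the length of the model in bases. Per the file headers, reads were aligned with Subread before counting. Cutadapt, DESeq2 and the build GRCz11 appear in the submitters' processing notes, without roles. The sources used here do not give the annotation, the use of strand or the counting of reads with several matches. Near-identical or overlapping models may therefore share reads. Groups and replicate numbers come from the sample titles. The labels speak of 5 samples per group for RNA, and 4 libraries per group were used here. The 2 genome sequencing samples were not analysed here.

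Members follow the stated rule on CPM (count over column total). Models were tested in R 4.3.3 with edgeR 4.0.16 (filterByExpr, TMM, quasi-likelihood F test, two-sided, Benjamini-Hochberg 0.05), cebra over heterozygous. DESeq2 1.42.0 and limma 3.58.1 (voom) were alternatives. The SE is the log2 fold change over the square root of F. Totals of 50634030 to 71877787 counts set the precision, and intervals are exact binomial (Clopper-Pearson, 95%). The length correction is a lowess trend per library (span 0.3). Same-numbered libraries' deviations from their group means correlated at 0.205, 0.142, 0.152 and 0.274 for numbers 1 to 4, so blocked fits take equal numbers as pairs, although the labels do not say what they share. Within each group all libraries differed beyond sampling noise (chi-square over degrees of freedom 9.99 or more). That value was 273 to 320 between cebra replicate 2 and the other cebra libraries. It was 9.99 to 34.7 for all other pairs within a group. The fits were also run on simulated counts with the same dispersion for every model. Those counts lacked the shift and length trend of cebra replicate 2 and any link between equal replicate numbers. That run therefore does not show how the fits behave under these features.

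Named models are the 8 members of highest ratio, the 6 of highest level, the 6 of smallest edgeR p, the 6 highest and 4 lowest in cebra replicate 2 and the 3 at the edge; at most 2 identifiers are printed. The members, lists and tests were chosen with earlier results of these data known. The gene lists and cell type markers, which need symbols, could not be used.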

Additional observations from a re-analysis of the deposited data

Results flagged for a closer look

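In the 24 named models, the 4 libraries of each group were searched for a value far from the others, 48 sets in all. The search marked 7, where chance marks about 1 in 20 sets; the models share libraries, and some were named for a low value in cebra replicate 2. Cebra replicate 2 was marked in 3 models, at 85.0 CPM in LL0000031206, at 0.326 CPM in the model of 1933 bases and at 0.124 CPM in the model of 1239 bases, each below the other cebra libraries. Cebra replicate 4 was marked at 3.12 CPM in the model of 513 bases, above the other cebra libraries at 0.492 to 0.714 CPM. Among the heterozygotes, replicate 2 was marked at 1.52 CPM in the model of 4358 bases and at 0.800 CPM in the model of 222 bases, and replicate 4 at 2.67 CPM in the model of 1933 bases, each above the rest of its group.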

How the results depend on the processing

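The number of models that meet the rule followed its thresholds. It was 86 as reported, 69 with upper-quartile scaling, 56 with TMM and 54 with RLE scaling, 449 at the lower fold limit tried, 14 at a fold of 2, 147 at a minimum of 0.5 CPM, 18 at 5 CPM, and 49 with cebra replicate 2 in the rule, of which 32 are among the 86. Leaving out 1 library gave 110 to 174. The 39 members with cebra replicate 2 above every heterozygous library became 53 under each of the TMM, RLE and upper-quartile scalings, 55 with the length correction, 39 to 41 without 1 heterozygous library, and 9 of the 18 members at 5 CPM or more. The share of all models inside the level limits moved too, from 21.7% to 41.1%, 40.1% and 41.1% under those scalings. It was 33.1% with the length correction and 22.2% at 5 CPM or more. No share of all models is given without 1 heterozygous library. The members' median log2 ratio of cebra replicate 2 over the heterozygous mean, 0.158, became 0.565, 0.544 and 0.563 under those scalings and 0.426 with the length correction. Over all models the median, -0.43, became -0.03, -0.05 and -0.03 under those scalings and -0.06 with the length correction. The difference of the medians stayed at 0.59 under each scaling and was 0.48 with the length correction. The members' median was 0.079 to 0.182 without 1 heterozygous library, and 0.127 against heterozygous replicate 2 alone, the ratio within the pair.

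EdgeR over 8 libraries called 5 models, 1 of them higher, and that 1 is a member. With library-size scaling it called 3, with 0 higher (808 models at an unadjusted p under 0.05), and with the filter of 1 CPM it called 1, with 0 higher. Without a filter it called 2 higher models, both members, and with the length offsets 2 higher, both members. Limma-voom called 8 models, with 3 higher and 3 members. With library quality weights it called 90, with 39 higher and 25 members. DESeq2 called 57, with 22 higher and 18 members. With the replicate block edgeR called 0 models in all and 0 members, and over pairs 1, 3 and 4 it called 39 members. Leaving out 1 library gave 0 to 25 models, 0 to 11 higher and 0 to 8 members, the highest each without cebra replicate 2. The fits without cebra replicate 2 hold only libraries that chose the members, so their member counts are descriptions.

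The sign of the log2 fold change turned only in the 4 named models lowest in cebra replicate 2, none of which passed the test over 8 libraries. It was -0.069 (limma-voom) and -0.002 (replicate block) for 1933 bases, -0.038 (limma-voom) for 1239 bases, -0.225 (limma-voom), -0.032 (replicate block) and -0.013 (without cebra replicate 4, against 0.554 without cebra replicate 2) for 1193 bases, and -0.135 (limma-voom), -0.04 (replicate block) and -0.05 (without cebra replicate 1, against 0.558 without cebra replicate 2) for 6677 bases. The other named models kept a positive sign under every alternative run. The cause of these shifts was not tested. At 1 CPM a value in 1 library rests on 50.6 to 71.9 counts, and 1 left-out library gives no error for cebra replicate 2.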
